A study of Saccharomyces cerevisiae with 6 samples.

Results

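Glucose uptake and the first step of glucose use were followed on 6 microarrays of budding yeast through 10 genes: the hexose transporter genes HXT1 to HXT7 and the kinase genes HXK1, HXK2 and GLK1. The members were the probe sets whose listed genes were all among these genes, which gave 10 of the 9275 probe sets that were not controls, 1 for each of the 10 genes (7 transporter genes and 3 kinase genes). The HXT6 and HXT7 probe sets carry a suffix used for probes shared between genes, so these 2 values are not certain to be of separate genes. A further GLK1 probe set also listed the overlapping gene YCL042W and was not a member.

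The series compared K4,79R yeast, in which lysines 4 and 79 of histone H3 were replaced by arginine, with its wild-type strain, 3 arrays each, and its stated question was which mRNA levels the mutation affects. Lysine 4 is methylated by Set1 and lysine 79 by Dot1 in wild-type chromatin, and arginine cannot take these marks. Total RNA came from both strains in mid-logarithmic growth in YPD, a rich medium with glucose, harvested at OD600 values between 0.5 and 0.7. The strain background, the copies of the histone genes present and whether the 3 samples of a strain were separate cultures are not given in the sources used here, so p-values cover only the variation among these samples and may reflect technical repeats.

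Yeast takes up glucose by facilitated diffusion through the Hxt proteins, and it makes different ones at different glucose levels. Low-affinity carriers (Hxt1, Hxt3) serve cells in abundant glucose, while carriers of higher affinity (Hxt6, Hxt7) and of intermediate to high affinity (Hxt2, Hxt4) serve cells when glucose is scarce. The sensors Snf3 and Rgt2 relieve repression of HXT genes by Rgt1 and its partners Mth1 and Std1, while the repressor Mig1 keeps genes of other carbon sources off in glucose. The Snf1 kinase, active when glucose is scarce, relieves repression by Mig1. Inside the cell, hexokinases Hxk1 and Hxk2 and the glucokinase Glk1 phosphorylate the sugar, with Hxk2 the main enzyme in glucose.

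Of the 10 genes, 1 rose and 1 fell in K4,79R cells. HXT1, which encodes a low-affinity carrier induced by high glucose, fell to 0.583 of the wild-type level, and HXT5, whose carrier is made in slow-growing or stressed cells, rose 2.07-fold. The other 8 did not pass the test, HXT3 and the 3 kinase genes among them. The test was limma across 7420 probe sets on log2(signal + 3.605), called at a Benjamini-Hochberg adjusted p under 0.05. By that rule 3.11% of all probe sets were called, 2.09% as higher and 1.02% as lower. Higher calls were 67.1% of all calls as deposited, and 44.7% to 54.5% under 3 other scalings of the arrays. All 10 members passed the filter on low signal. Their log2 changes, K4,79R minus wild type, had a median of 0.14, against 0.053 over all 7420 probe sets, and 8 of the 10 were positive, against 56.5% of all. Signs and medians also depend on the scaling. Under the 3 other scalings the median over all probe sets was -0.040 to 0.0071. HXK2 turned negative with a common median (-0.069) and with the constants of the mutant arrays divided out (-0.019).

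**Figure D1:**
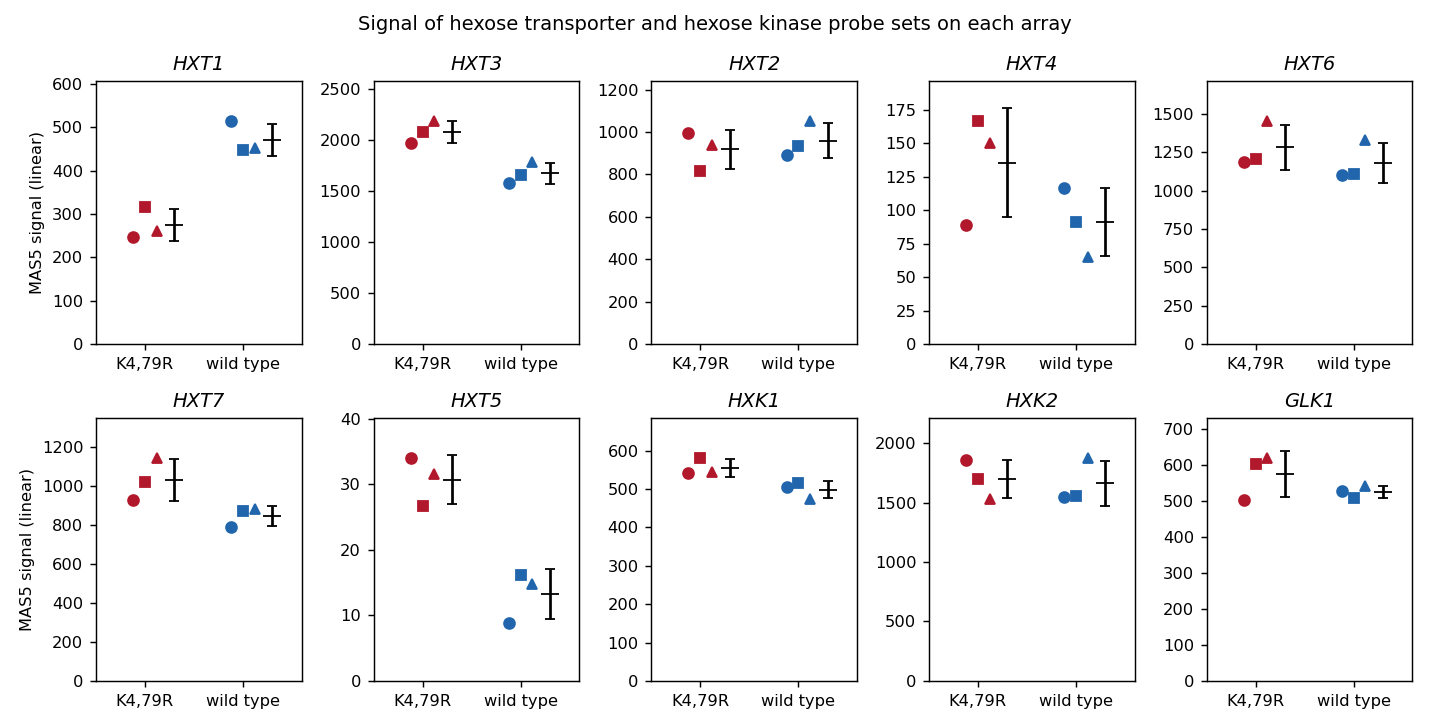
MAS5 signal on a linear scale for each of the 10 probe sets on the K4,79R arrays (red) and the wild-type arrays (blue), with circles, squares and triangles for arrays 1, 2 and 3 and the mean ± SD (n = 3) in black beside each group; each panel has its own axis from 0. The groups lie fully apart for HXT1 (lower in K4,79R) and for HXT3, HXT5, HXT7 and HXK1 (higher in K4,79R), and overlap for the other 5.

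Among the K4,79R arrays, array 1 stood apart from the others of its strain. Across the tested probe sets, which are not independent replicates, its log2 values correlated at 0.966 and 0.974 with K4,79R arrays 2 and 3, which correlated at 0.987 with each other, and the wild-type arrays correlated at 0.983 to 0.992 among themselves. Between strains array 1 was not the most distant. It correlated at 0.965 to 0.968 with the wild-type arrays, and the lowest value of any pair, 0.955, was between K4,79R array 2 and wild-type array 3. The ratio of 3′ to 5′ signal of the actin control, a sign of RNA integrity, was 1.00 on K4,79R array 1 and 1.498 to 1.64 elsewhere. For the SPT15 control this ratio was 5.71, 2.79 and 3.35 on K4,79R arrays 1, 2 and 3, against 5.02 to 6.15 on the wild-type arrays. On this control arrays 2 and 3, not array 1, lay outside the wild-type range. The part of RNA quality in the results below was not tested, and results that turn on array 1 are given without it.

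The low-affinity transporter genes did not move together. HXT1 (YHR094C) had signals of 246, 317 and 261 on the K4,79R arrays, against 514, 447.5 and 452.5 on the wild-type arrays. Every mutant array lay below every wild-type array, and the nearest values of the groups were 317 and 447.5. The mean was 274 ± 37.3 in K4,79R and 471 ± 37.0 in wild type (SD, n = 3 each), a log2 change of -0.78 ± 0.14 (moderated SE, limma adjusted p = 0.0287). By size of change HXT1 ranked 50 among the 76 probe sets called lower. The direction held without each array in turn, at -0.88 to -0.70. The call was lost without K4,79R array 3 (adjusted p = 0.109) or wild-type array 1 (0.142), 2 (0.139) or 3 (0.0991), and was kept without K4,79R array 1 (0.0137) or array 2 (0.0492).

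HXT3 (YDR345C) encodes the other low-affinity carrier, which is made over a wide range of glucose levels. Its signals were 1974, 2078 and 2185 in K4,79R, against 1581, 1662 and 1783 in wild type. All 3 mutant values were the higher ones here, the reverse of HXT1. The log2 change of 0.31 ± 0.11 had a 95% interval of 0.045 to 0.58 before adjustment and did not pass over all probe sets (limma adjusted p = 0.184). Its sign was the same under the 3 other scalings and without each array. Non-overlap of the groups is common on these arrays: it was seen for 27.6% of the tested probe sets, 16.1% higher and 11.5% lower, and for 5 of the 10 members.

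The ratio of HXT1 to HXT3 on the same array does not change when an array is multiplied by a constant, though quantile normalization can change it. Relative to its wild-type mean, its log2 value was -1.17, -0.88 and -1.23 on K4,79R arrays 1, 2 and 3, against 0.21, -0.062 and -0.15 on the wild-type arrays. The separation between the strains was about -1.10 on average, with an SD of 0.19 within each of them. That the strains lie apart follows from the values above, with HXT1 lower and HXT3 higher on every K4,79R array. The ratio is thus a description with no test and adds no separate evidence. It says that these 2 genes changed unequally, not which of them did.

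**Figure D2:**
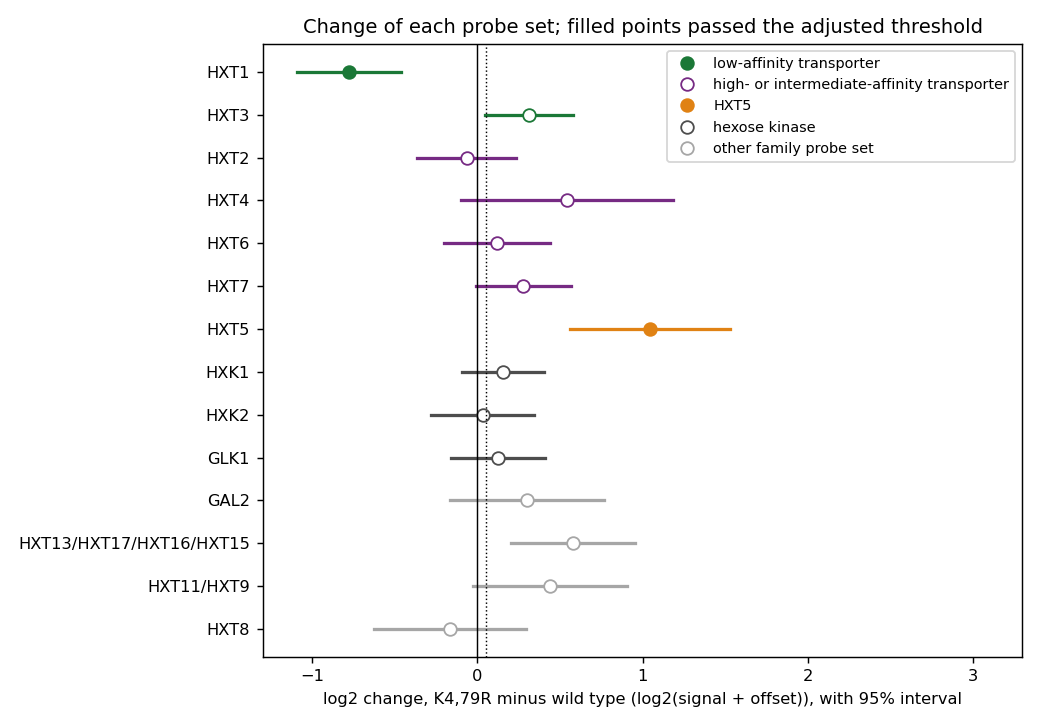
Log2 change, K4,79R minus wild type, with its 95% interval from limma, for the 10 members and 4 other probe sets of the transporter family; filled points passed an adjusted p under 0.05 and the dotted line is the median of all tested probe sets (0.053). HXT1 (-0.78) and HXT5 (1.05) are filled, and the interval of HXT4 is the widest among the members.

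Among the carriers of higher affinity, none was called. HXT7 (YDR342C) had 925, 1021 and 1142 in K4,79R, against 786, 870 and 881 in wild type, so that all mutant values were above all wild-type values. Its log2 change was 0.28 ± 0.13 (limma adjusted p = 0.249). HXT6 (YDR343C), its near-identical neighbour, had 1187, 1207 and 1452 in K4,79R, against 1103, 1106 and 1333 in wild type, and the groups overlapped. Its log2 change was 0.12 ± 0.14 (limma adjusted p = 0.662). The log2 ratio of HXT6 to HXT7 on an array, relative to its wild-type mean, was -0.24 to -0.12 in K4,79R and -0.13 to 0.12 in wild type, so the 2 probe sets were not separated between strains.

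HXT2 (YMR011W), whose carrier is induced at low glucose, had 997, 818 and 938 in K4,79R, against 892, 935 and 1051 in wild type. These groups overlapped throughout. The log2 change of -0.065 ± 0.13 had a 95% interval of -0.36 to 0.23, and its sign turned without K4,79R array 2 (0.015) or wild-type array 3 (0.0021). Set against HXT3 on the same array, HXT2 was lower on every K4,79R array: the log2 ratio relative to its wild-type mean was -0.18, -0.54 and -0.41 in K4,79R, against -0.020, -0.023 and 0.043 in wild type. HXT3 itself was higher on every K4,79R array, while HXT2 overlapped. The ratio does not say which of these genes changed and was not tested.

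HXT4 (YHR092C) varied widely between arrays of the same strain. It had 89.4, 167 and 150.4 in K4,79R, against 116.6, 91.6 and 65.5 in wild type. K4,79R array 1 was within the wild-type range while arrays 2 and 3 were above it, and the coefficient of variation was 30.0% in K4,79R and 28.0% in wild type. With all arrays the log2 change was 0.54 ± 0.28 (limma adjusted p = 0.303). Without K4,79R array 1 it was 0.81 ± 0.22 and passed the threshold (adjusted p = 0.0438), in a fit where 18.5% of all probe sets did. HXT4 is the member whose value depends most on K4,79R array 1.

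As classes, the low-affinity genes averaged -0.23 ± 0.11 on the K4,79R arrays relative to their wild-type mean (log2 scale, SD, n = 3), against an SD of 0.035 on the wild-type arrays. In the class of HXT2, HXT4, HXT6 and HXT7, HXT6 and HXT7 were counted separately, though their probe sets may not measure separate genes. These 4 genes averaged 0.22 ± 0.16 on the K4,79R arrays, against an SD of 0.018 on the wild-type arrays. That small SD hides opposite departures that cancel in the mean. HXT4 was at 0.38 and -0.42 on wild-type arrays 1 and 3, where HXT2, HXT6 and HXT7 were at -0.10 to -0.092 and 0.061 to 0.18. Low minus high affinity was -0.40, -0.37 and -0.59 on K4,79R arrays 1, 2 and 3, against 0.0023, -0.031 and 0.029 on the wild-type arrays. The 3 mutant values lay below the wild-type ones, with a mean of -0.45, and -0.43 with HXT6 and HXT7 alone as the high-affinity class. No p is given, since the genes were chosen with results known. The class means hide splits: the low-affinity mean was below 0 through HXT1 alone, while HXT3 had a larger positive log2 change than HXT2, HXT6 or HXT7. In the high-affinity class the largest log2 change was that of HXT4, 0.54 and not called, against -0.065 to 0.28 for HXT2, HXT6 and HXT7.

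**Figure D3:**
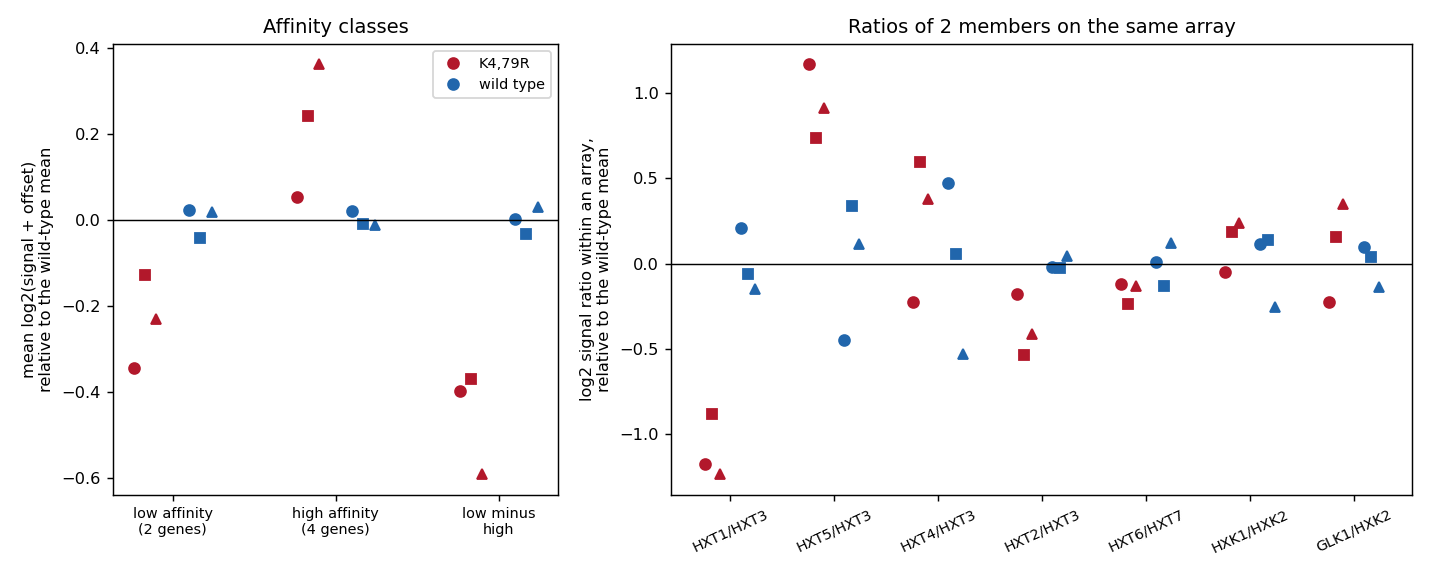
Left, mean log2(signal + offset) of the low-affinity genes (HXT1, HXT3) and the high- or intermediate-affinity genes (HXT2, HXT4, HXT6, HXT7), and their difference, on each array relative to the wild-type mean; right, log2 ratios of 2 members on the same array relative to the wild-type mean (red K4,79R, blue wild type; circles, squares and triangles for arrays 1, 2 and 3). Low minus high is -0.59 to -0.37 in K4,79R, and HXT1/HXT3 is -1.23 to -0.88 there, apart from wild type in both cases.

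HXT5 (YHR096C) encodes a carrier of moderate affinity that, unlike most of the family, is made when growth slows, in stationary phase and under stress. It read 34.0, 26.6 and 31.5 in K4,79R, against 8.9, 16.1 and 14.8 in wild type. All mutant values were higher, and wild-type array 1 was the lowest of all. The means were 30.7 ± 3.77 in K4,79R and 13.3 ± 3.84 in wild type (SD, n = 3 each), a log2 change of 1.05 ± 0.21 (limma adjusted p = 0.0426). At this low signal the offset matters: the change was 1.19 with an offset of 1 and 0.64 with an offset of 0.5 of the median signal, called in each. The call was lost without K4,79R array 2 (adjusted p = 0.0874) or 3 (0.138), without wild-type array 1 (0.140), 2 (0.130) or 3 (0.115), with quantile normalization (0.0544) and without the filter on low signal (0.0543), while the log2 change stayed between 0.84 and 1.17 without each array.

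HXT1 and HXT5 are direct neighbours among protein-coding genes on chromosome VIII in the RefSeq order, and HXT4 is parted from HXT1 only by AHT1. Their log2 changes were thus -0.78, 1.05 and 0.54 within a single cluster. The genes flanking the cluster were not called, with PAL2 beyond HXT5 at 0.30 ± 0.15 (limma adjusted p = 0.307) and MSR1 beyond HXT4 at -0.45 ± 0.14 (adjusted p = 0.125). HXT7 and HXT6 are likewise neighbours on chromosome IV, with HXT3 parted from HXT6 by YDR344C, and these 3 genes had log2 changes between 0.12 and 0.31.

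None of the 3 kinase genes was called. HXK2 (YGL253W), the main hexokinase gene in glucose, whose product also takes part in glucose repression, had 1858, 1702 and 1533 in K4,79R, against 1550.3, 1557 and 1876 in wild type. The groups covered the same range, and the log2 change of 0.032 ± 0.14 had a 95% interval of -0.28 to 0.35. Its sign turned with a common median, after division by the constants of the mutant arrays and without some arrays, so no direction is given.

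HXK1 (YFR053C), the hexokinase gene that is repressed in glucose, had 540.5, 581 and 543 in K4,79R, against 505, 516 and 473.5 in wild type. The mutant values were all higher, but by little: the log2 change was 0.15 ± 0.11 with a 95% interval of -0.092 to 0.40 (limma adjusted p = 0.443). GLK1 (YCL040W), the glucokinase gene, also repressed in glucose, had 502, 601 and 619 in K4,79R, against 526, 507 and 540 in wild type. K4,79R array 1 was below all wild-type arrays and the other mutant arrays above them, for a log2 change of 0.12 ± 0.12 (95% interval -0.16 to 0.41, limma adjusted p = 0.593). Without K4,79R array 1 the GLK1 change was 0.22 ± 0.097 and also did not pass (limma adjusted p = 0.156). The GLK1 probe set that also lists YCL042W was at 0.18 ± 0.13 and was not called. It had 220, 207 and 221 in K4,79R, against 203, 165 and 204 in wild type. There K4,79R array 1 was above all wild-type arrays, unlike on the member probe set. For each kinase gene the interval thus leaves out a change of the size seen for HXT1 or HXT5 in either direction.

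With all arrays, the balance between the kinase genes also did not separate the strains. The log2 ratio of HXK1 to HXK2 on an array, relative to its wild-type mean, was -0.049, 0.18 and 0.24 in K4,79R, against 0.11, 0.14 and -0.25 in wild type. That of GLK1 to HXK2 was -0.23, 0.16 and 0.35 in K4,79R, against 0.099, 0.039 and -0.14 in wild type. In both ratios the overlap came from K4,79R array 1, the lowest of the mutant arrays, while arrays 2 and 3 lay above every wild-type array. Leaving out the array that makes an overlap fixes the outcome, so nothing is concluded from these ratios without array 1. Both also share HXK2. The log2 ratio of GLK1 to HXK1 was -0.18, -0.025 and 0.11 in K4,79R, against -0.016, -0.099 and 0.12 in wild type. It overlapped with or without array 1.

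**Figure D4:**
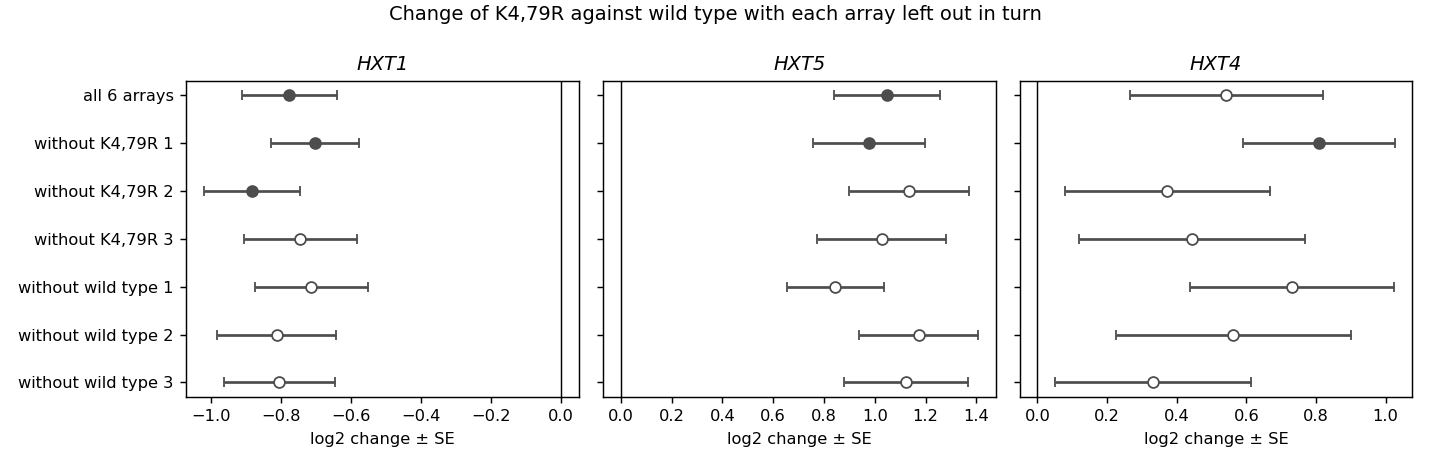
Log2 change (± moderated SE) of HXT1, HXT5 and HXT4, K4,79R minus wild type, with all arrays and with each array left out; filled points passed an adjusted p under 0.05 in that fit. HXT1 stays between -0.88 and -0.70 and HXT5 between 0.84 and 1.17, while HXT4 runs from 0.33 to 0.81 and is filled only without K4,79R array 1.

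The other genes of the transporter family were dim on these arrays. The probe set shared by HXT13, HXT15, HXT16 and HXT17 had 39.9, 31.7 and 37.9 in K4,79R, against 21.6, 21.0 and 27.3 in wild type. All mutant values were higher, with a log2 change of 0.58 ± 0.16 that did not pass (limma adjusted p = 0.104). That shared by HXT9 and HXT11 was at 0.44 ± 0.20 (adjusted p = 0.260), the galactose permease gene GAL2 at 0.30 ± 0.20 and HXT8 at -0.17 ± 0.20. HXT10, HXT14 and a second HXT9 and HXT11 probe set lay under the filter on low signal and were not tested.

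Of 62 further genes on 5 glucose pathway lists, 50 had a tested probe set of their own and none was called in limma, where 5 had an unadjusted p under 0.05. That is 10% of the list genes tested, against 21.1% of all 7420 probe sets (1562). All 10 genes of the sensors and the Rgt1 branch were tested. The sensor genes were at 0.16 ± 0.15 (SNF3) and 0.16 ± 0.15 (RGT2) on the log2 scale, and the repressor gene RGT1 at -0.13 ± 0.12. Of the genes for its partners, MTH1 was at 0.15 ± 0.18, and STD1 had 134, 144 and 142 in K4,79R, against 159.5, 162 and 171 in wild type. STD1 was lower on every mutant array, with a log2 change of -0.23 ± 0.11 that did not pass (limma adjusted p = 0.283).

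Among 17 tested genes of the Snf1 and Mig1 branch the median log2 change was 0.12. MIG1 was at 0.29 ± 0.20 and MIG2, whose product acts with Mig1, at -0.17 ± 0.16. Of 15 genes on the fate of glucose 6-phosphate, with a median of 0.044, the isomerase gene PGI1 was at 0.057 ± 0.14 and EMI2, a paralogue of GLK1, at 0.046 ± 0.16. The 6 tested genes of sucrose and maltose use had a median of 0.055.

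The 5 genes with an unadjusted p under 0.05, a smaller share than over all probe sets, were named after their values were seen, and all had positive log2 changes: ADR1, MAL11, TPS1, MIG3 and FBP26. ADR1, an activator of genes repressed in glucose, had 18.7, 35.4 and 30.0 in K4,79R, against 13.7, 14.1 and 13.5 in wild type. Its mutant values were higher but wide apart, with a log2 change of 0.83 ± 0.22 (limma adjusted p = 0.0917). The maltose permease gene MAL11 was at 0.52 ± 0.14 (adjusted p = 0.0915), and TPS1, which encodes trehalose phosphate synthase, a regulator of glucose entry into glycolysis, at 0.35 ± 0.11 (adjusted p = 0.127). Without K4,79R array 1, 7 of the 50 list genes were called, all higher, where 18.5% of all probe sets were: YCK2, ELM1, MIG1, ADR1, PFK27, FBP26 and MAL11.

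**Figure D5:**
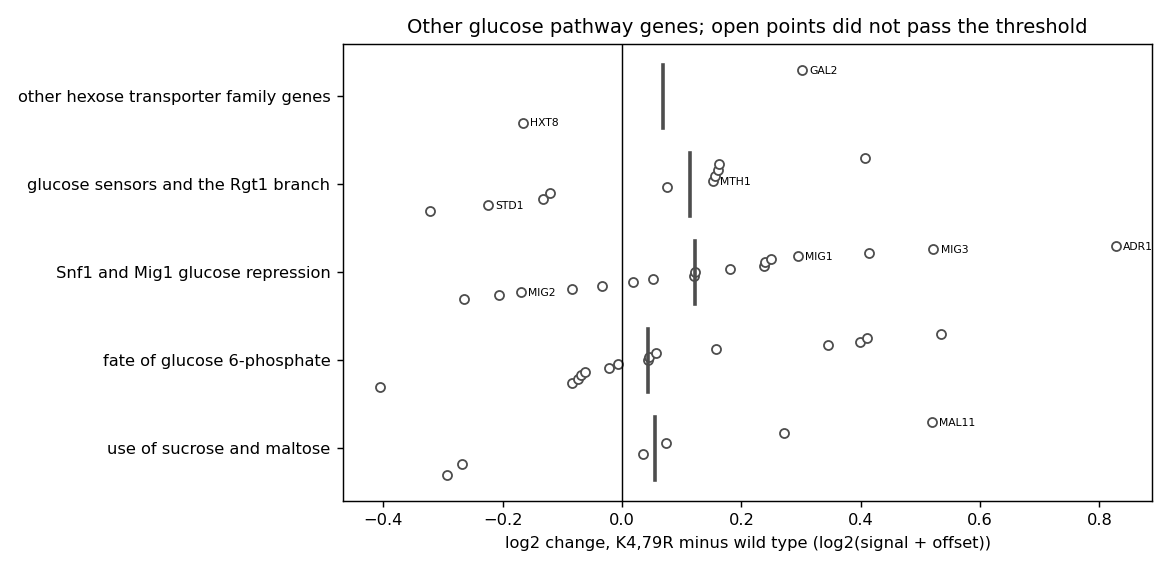
Log2 change, K4,79R minus wild type, of the tested genes on 5 glucose pathway lists, with the median of each list as a bar; open points did not pass an adjusted p under 0.05. All points are open, with ADR1 (0.83) farthest to the right.

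For the called members, the genes with the most similar pattern were found by Pearson correlation of log2(signal + offset) over the 6 arrays, among 5902 probe sets of other single genes. Those closest to HXT1 were MVB12 (r = 0.993), PTK1 (r = 0.992) and GET1 (r = 0.991). Only PTK1 of these was called: MVB12 was at -0.47 ± 0.13 (limma adjusted p = 0.107) and GET1 at -0.36 ± 0.11 (adjusted p = 0.131). PTK1, a kinase gene of polyamine transport, had 18.9, 24.5 and 19.5 in K4,79R, against 46.2, 43.4 and 39.0 in wild type, and fell with a log2 change of -0.92 ± 0.15 (limma adjusted p = 0.0263), on a probe set whose suffix marks shared probes. Those closest to HXT5 were SWP1 (r = 0.990), STM1 (r = 0.982) and CDC21 (r = 0.980), none of them called. The 6 points share the split into 2 strains, so these correlations are a description only.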

How the data were processed

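The authors deposited intensity values on a linear scale with 1 value for each probe set. MAS5 is named, without a version, in the submitters' processing notes. Values of K4,79R arrays 1, 2 and 3 were whole multiples of 0.1 times a constant (0.922, 1.09 and 1.11; largest deviation 6e-06 of a step), and those of wild type of 0.1; no source used here gives the basis of these constants. Values were used as deposited. Of 9335 probe sets, 60 controls were left out. The offset of 3.605 equals 0.1 times the median over arrays of the median signal. A filter removed the dimmest 20% by mean signal and kept 7420 probe sets. Tests used limma 3.58.1 under R 4.3.3 (lmFit, eBayes with an intensity trend, two-sided, 4 residual degrees of freedom), checked on simulated data. Fold changes are on the log2(signal + offset) scale and understate changes of dim genes. A list gene was taken from its brightest tested probe set with 1 listed gene. The 6 arrays limit the precision; an exact permutation test of 3 against 3 cannot go below 0.1 and was not used. Names and gene order came from GEO's platform annotation and RefSeq's R64 gene table; no coordinates are given because no build is named for the array. The members and lists were chosen with earlier results of these data known. By the naming rule, the text names the members, preset regulators, up to 4 called genes a list (there were none) and the 3 genes most like each called member. Outside it, chosen after their values were seen, are other transporter family genes, the 5 list genes with an unadjusted p under 0.05, those called without K4,79R array 1, and the cluster neighbours.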

Additional observations from a re-analysis of the deposited data

How the results depend on the processing

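Of the 10 members, 2 were called with the deposited values. That count was 1 with quantile normalization, 1 without the filter, 1 without the lowest 40% of probe sets (where HXT5 was not tested) and 0 to 3 without each array. Without each array, 0 to 7 list genes were called, and ADR1 made the count 1 with quantile normalization, 1 with a common median and 1 with the constants divided out. Over all probe sets 231 were called (67.1% of them higher), against 347 with quantile normalization (50.1% higher), 387 with a common median (44.7%), 374 with the constants divided out (54.5%) and 8 to 1370 without each array. Low minus high affinity stayed between -0.49 and -0.38 without each array and moved to -0.62 with HXT5 among the high-affinity genes. HXK2 was at -0.069 with a common median, -0.019 with the constants divided out and -0.035 to 0.12 without each array, and HXT2 at -0.13 to 0.015. The other 8 members kept their sign in every alternative run. The cause of these shifts was not tested. Each member has 1 probe set, so a mean over its probe sets was not run.

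With the replicate block, 0 members were called (HXT1 adjusted p = 0.123, HXT5 adjusted p = 0.145) and 9 probe sets in all, against 231. The labels give only shared numbers: deviations from the strain means correlated at -0.18, 0.10 and -0.064 between arrays 1, 2 and 3 of the 2 strains, and none of the 6 arrays correlated best with its own number.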
